A study of Mus musculus with 24 samples.

Results

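The comparison described here asks what differs in the RNA of mouse embryonic fibroblasts (MEFs) when a mutation of *Eset2* is added to the deletion of *Eset1*. It sets 3 libraries labelled *E1E2* (Eset1/Eset2 KO, clone A4 after 4-hydroxytamoxifen) against 3 libraries labelled *E1* (Eset1KO, clone E25 after 4-hydroxytamoxifen), chosen by their labels, out of 24 libraries in the series. Both clones carry a conditional *Eset1* allele (Eset1 cKO) from which a tamoxifen-inducible Cre recombinase cuts floxed exons once 4-hydroxytamoxifen (4-OHT, 1 uM) is added to the medium. Clone A4 was raised from the E25 line with a guide RNA against *Eset2* and Cas9, was kept because sequencing showed a frameshift in *Eset2*, and received the Cre construct again together with a puromycin resistance gene. A4 is a single clone, so the *Eset2* mutation and whatever else distinguishes A4 from E25 cannot be told apart. Both clones were also sequenced without 4-OHT, with 3 libraries of E25 control, called WT (Eset1 cKO), and 3 of A4 control, called *E2* (Eset1cKO Eset2 KO), which share no library with the main comparison. Another 12 libraries come from later clones, all after 4-OHT. The clone named E2 in the labels (*E1E2 G9Gl*, Eset1/Eset2/G9a/Glp KO) and its descendant E2F4 (*6KO2*, Eset1/Eset2/G9a/Glp/Suv39h1/Suv39h2 KO) were raised from A4. Clone B1 (*E1 S1S2*, Eset1/Suv39h1/Suv39h2 KO) and its descendant B1A6 (*6KO1*, Eset1/Eset2/Suv39h1/Suv39h2/G9a/Glp KO) were raised from E25.

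*Eset1* and *Eset2* are the older names of *Setdb1* and *Setdb2*, which encode SET-domain enzymes that methylate lysine 9 of histone H3 (H3K9). SETDB1 is brought to endogenous retroviruses (ERVs) by KRAB zinc finger proteins and TRIM28, where it writes H3K9me3 and keeps these elements silent. SETDB2 is much less studied, and has been linked to the control of inflammatory genes and of left-right patterning. Fibroblasts are not immune cells by trade, but they answer interferon and NF-kB signals by making chemokines, growth factors for myeloid cells and antiviral proteins.

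The main comparison rests on between 30389345 and 35915997 gene and repeat counts per *E1* library and between 27781564 and 31063732 per *E1E2* library. A gene is called higher or lower where the difference is at least 2-fold (log2 difference of 1) and the adjusted p of edgeR's quasi-likelihood test is at most 0.01. Levels are counts scaled to a common library size, given per library in the order of replicates 1 to 3, and they are not divided by gene length, so they are compared between libraries and not between genes. Libraries of a group differed beyond sampling noise, since the chi-square per gene between libraries of *E1* or of *E1E2* lay from 3.82 to 25.2. It was higher for WT replicate 2, at 68.3 and 57.0 against WT replicates 1 and 3. For *E2* replicate 2 it was 17.3 and 18.4 against *E2* replicates 1 and 3. By the number of genes far outside the rest of the group, 1 library stood apart. In *E2* replicate 2, 69 of 11356 well measured genes lay over 2-fold outside the other *E2* libraries, against 3 to 17 genes in each of the other 23 libraries, so values that use *E2* are given with and without it where it matters. Of 9 fibroblast markers all were measured, and their summed CPM was 5568 to 6295 in *E1* and 5191 to 5418 in *E1E2*, where *Thy1* alone was called, at -1.92. The summed CPM of 4 neural markers was 60.2 to 68.4 in *E1* and 118 to 126 in *E1E2*, nearly all of it *Tubb3*, with *Sox2*, *Sox10* and *Elavl4* at 10 or fewer counts. Of 5 haematopoietic markers *Ptprc*, *Adgre1*, *Csf1r* and *Lyz2* were at 10 or fewer counts in every one of the 6 libraries, and *Cd68*, also found in other cells, averaged 88.8 normalized counts in *E1* and 114 in *E1E2* (0.37, adjusted p = 0.0539, edgeR). Their summed CPM was 3.44 to 3.94 in *E1* and 4.11 to 5.13 in *E1E2*, without overlap, and the part of such cells in the immune results was not tested. Among 6 epithelial markers, with a summed CPM of 5.23 to 6.29 and 4.93 to 7.11, *Krt14* was called higher at a mean of 6.2 against 0.655 normalized counts, with 10 or fewer counts in every library.

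The targeted genes were read first. *Setdb2*, on chromosome 14 from 59402009 to 59440884 of GRCm38, had 653, 651 and 669 normalized counts in *E1* and 293, 313 and 238 in *E1E2*. All *E1E2* libraries lay below all *E1* libraries, with a log2 difference of -1.23 (SE 0.09, adjusted p = 4.88e-10, edgeR). The level was 266, 299.5 and 317 in *E2* and averaged 258 in *E1E2 G9Gl*, 288 in *6KO2*, 495 in *E1 S1S2* and 405 in *6KO1*, so the low level of A4 was also found in the clones raised from it. *Setdb1*, on chromosome 3 from 95323525 to 95357202, had 994, 1092 and 1007 normalized counts in *E1*, 1267, 1187 and 1256 in *E1E2*, 1284, 1018 and 1398 in *E2* and a mean of 1529 in WT. The *E1E2* level thus lay within the range of *E2* without 4-OHT and above that of *E1*, by 0.26 on the log2 scale (SE 0.08, adjusted p = 0.0118, edgeR), which does not pass the test. The count spans the whole gene, most of which Cre leaves in place, so it does not show whether the floxed exons were removed, and *E1E2* is used here as the label of these libraries. *Suv39h1*, *Suv39h2*, *Ehmt1* and *Ehmt2*, the other H3K9 methyltransferases of the study, differed by -0.09, -0.12, -0.10 and 0.10 between *E1E2* and *E1*, with adjusted p from 0.147 to 0.407 (edgeR).

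Of 18565 genes tested, 685 were higher in *E1E2* than in *E1* (3.69% of the genes tested) and 389 were lower (2.1%). The median gene differed by -0.0036 on the log2 scale. In all 1074 called genes the *E1E2* and *E1* libraries did not overlap, but the same held for 8860 genes (47.7%) over the whole table. Protein-coding genes made up 570 of the higher and 312 of the lower genes. With 3 libraries against 3 an exact permutation test of a single gene cannot go below p = 0.1, so the calls lean on edgeR's estimate of the spread, which borrows from all genes.

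Of 18 inflammatory cytokines and NF-kB targets tested, 15 were higher and 1 was lower in *E1E2* than in *E1* (83.3% and 5.56%, against 3.69% and 2.1% over all genes). The median log2 difference was 2.91 against -0.0036 over all genes. This list and those below were chosen with earlier results of these data known, so the shares describe their members and test nothing. *Icam1*, an adhesion molecule that leukocytes bind (chromosome 9, 21015985 to 21028817), had 0, 0 and 1.76 normalized counts in *E1* and 385, 250.2 and 253 in *E1E2*. *E1* held 2 reads of *Icam1* in all against 862 in *E1E2*, a ratio of 474 with a 95% counting interval from 131 to 3921. *Cxcl1*, a chemokine that draws neutrophils, rose from 35.2, 31.6 and 44 to 2041, 1412 and 1463 (log2 difference 5.46, SE 0.63, adjusted p = 4.82e-07, edgeR). *Cxcl5*, of the same chemokine family, had 2.93, 2.96 and 0.879 normalized counts in *E1* and 309, 244 and 257 in *E1E2*. For these 3 genes every *E1E2* library exceeded every *E1* library by a wide margin.

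*Cxcl2* and *Csf2* had no count in any *E1* library. *Cxcl2*, another neutrophil chemokine, reached 60.1, 26.6 and 37.2 normalized counts in *E1E2*, at least 44.4-fold higher if 3 counts are allowed over the *E1* group. *Csf2*, which encodes the growth factor GM-CSF, reached 32.5, 16.6 and 14.5, at least 22.7-fold higher by the same floor. Both are detected in *E1E2* at a low number of reads, 121 and 62 over the group. *Ccl2*, the main monocyte chemokine and already well transcribed in *E1*, went from 972, 875 and 1197 to 14191, 11107 and 10929 (log2 difference 3.57, SE 0.47, adjusted p = 2.44e-06, edgeR). *Ccl7*, its neighbour in function, was higher by 2.87, *C3*, the central complement protein, by 3.54, *Il6* by 3.03, *Csf3* by 2.95 and *Ccl5* by 2.01. *Nfkbia* and *Tnfaip3*, feedback inhibitors that NF-kB itself induces, were higher by 1.94 and 1.31, *Vcam1* by 1.26 and *Csf1* by 1.01. *Il33* (1.11, adjusted p = 0.0177) and *Ptgs2* (0.19, adjusted p = 0.316) did not pass the test (edgeR). The exception was *Cxcl12*, a homeostatic chemokine that keeps blood stem cells in their niche. It fell from a mean of 1231 normalized counts in *E1* to 349 in *E1E2* (log2 difference -1.82, SE 0.15, adjusted p = 2.94e-09, edgeR).

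Interferon response genes formed a second such group. All 36 members were tested, and 29 were higher and 0 lower at the thresholds (80.6% and 0%, against 3.69% and 2.1% over all genes). The median log2 difference was 1.79. In all 36 every *E1E2* library lay above every *E1* library, which also held for 4327 of the 18565 genes tested. *Mx1*, a GTPase that blocks influenza viruses, had 11.7, 9.87 and 11.4 normalized counts in *E1* and 255, 125 and 153 in *E1E2* (log2 difference 4.00, SE 0.33, adjusted p = 2.49e-09, edgeR). *Mx2* had 29.3, 27.6 and 32.5 in *E1* and 433, 324 and 295 in *E1E2*. *Usp18*, the protease that removes ISG15 from proteins and dampens the interferon receptor, went from 25.4, 14.8 and 32.5 to 243, 258 and 235. In each of these genes replicate libraries stayed close to each other next to the gap between the groups.

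The GTPases that attack intracellular parasites moved in the same direction. *Gbp7* had 11.7, 14.8 and 8.79 normalized counts in *E1* and 143, 155 and 130.2 in *E1E2* (log2 difference 3.60, SE 0.33, adjusted p = 1.68e-08, edgeR). *Irgm2*, one of the 12 largest rises among genes with a mean of at least 100, went from 33.2, 33.6 and 29.9 to 431, 394 and 334. *Igtp* was higher by 3.27, *Iigp1* by 3.84, *Gbp2* by 2.52 and *Gbp3* by 1.61. Among sensors and effectors, *Zbp1*, which senses Z-form nucleic acids, was higher by 3.30, *Ddx58* (RIG-I) by 1.42, *Ifit1* by 1.41, *Rsad2* (viperin) by 1.88, *Oas2* by 2.60 and *Isg15* by 1.06. The transcription factors that carry the signal were higher too, *Irf7* by 2.61 and *Irf9* by 1.33. Of the 7 members that were not called, *Stat2* (0.98), *Irgm1* (0.92), *Ifit2* (0.87), *Dhx58* (0.84) and *Bst2* (0.79) fell short of the 2-fold limit. *Ifih1* (MDA5), the sensor of long double-stranded RNA, differed by 0.40 and *B2m* by 0.39. *Mx1* and *Mx2*, *Ifit3* and *Ifit3b*, and the *Gbp*, *Oas* and *Irgm* genes are families of close relatives, so reads may be split among copies.

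**Figure D1:**
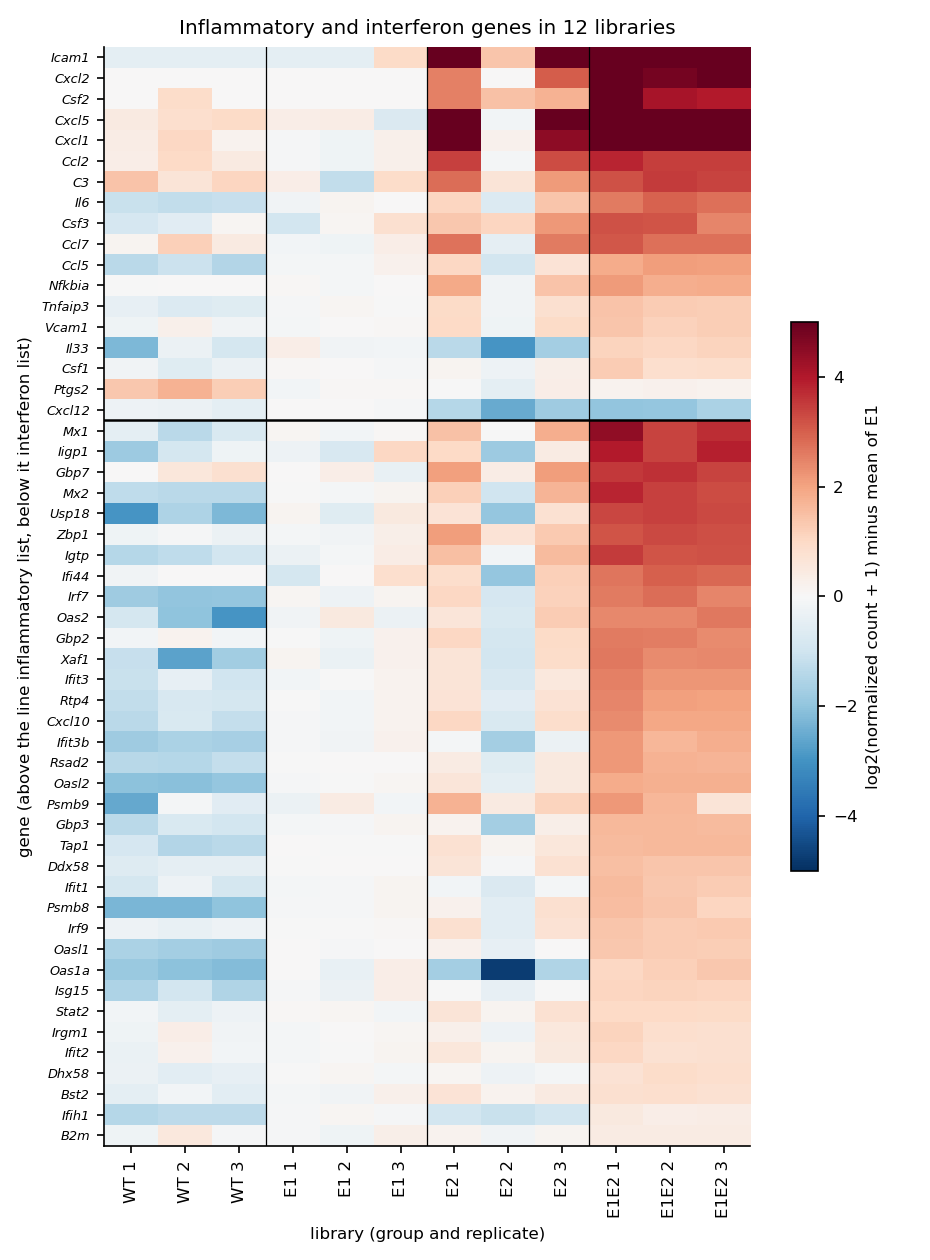
Heat map of the 18 inflammatory genes and 35 of the 36 interferon response genes (rows) in the WT, *E1*, *E2* and *E1E2* libraries (12 columns), coloured by log2 of the normalized count plus 1, minus the mean of the *E1* libraries. The *E1E2* columns are red throughout the interferon block, and *E2* replicate 2 is mostly pale or blue where the other *E2* libraries are red.

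The *E2* libraries gave a like picture before 4-OHT, except for the one that stood apart. *Icam1* was 0 in all WT libraries and 113, 2.69 and 84.4 in *E2*. *Cxcl1* averaged 55.3 in WT and was 1148, 43 and 827 in *E2*, and *Ccl2* averaged 1549.9 in WT and was 10731, 946 and 9721 in *E2*. *E2* replicate 2 was thus near the WT level for all 3 genes while replicates 1 and 3 were far above it. Against WT, 10 inflammatory genes were higher and 2 lower in *E2*, with a median of 1.60, and without *E2* replicate 2 the numbers were 11, 2 and 2.07. Of the interferon response genes 15 were higher in *E2* than in WT and 0 were lower, with a median of 1.16. Without *E2* replicate 2 there were 23 higher and 0 lower, with a median of 1.57. Over all genes tested, 2.9% were higher and 3.21% lower in *E2* than in WT. Without *E2* replicate 2 the numbers over all genes were 545 and 577 of 18995. The difference between the clones was called larger after 4-OHT than before it (edgeR) for 4 of the 36 interferon response genes, against 2.01% of all genes. They included *Gbp7* by 2.43, *Gbp2* by 1.95 and *Ifit1* by 1.07. Without *E2* replicate 2, 3 of the 36 were called in this test. The values were then 1.98 for *Gbp7* and 1.49 for *Gbp2*, both still called, and 0.89 for *Ifit1*, which was no longer called. The third was *Psmb8*, a subunit of the immunoproteasome, at -1.53. Of the 18 inflammatory genes 1 was called with or without that library. *Icam1* was not, at -0.37 (adjusted p = 0.915, edgeR). *Gbp7* was at 51.2, 15.2 and 52.3 in *E2* and averaged 16.7 in WT. *Ptgs2*, which makes the precursor of prostaglandins, went the other way before 4-OHT, with 4562, 6042 and 4237 normalized counts in WT and 1781, 1287 and 2236 in *E2*. That difference of -1.49 was called, the one after 4-OHT (0.19) was not, and the change of 1.67 between them was (1.49 without *E2* replicate 2).

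Among the later clones the *Eset2* mutants differed widely from each other in the genes named here, which are only a few members of these lists. *E1 S1S2*, the only group there without an *Eset2* mutation, also carries mutations of *Suv39h1* and *Suv39h2*. It had the lowest mean of these genes except *Cxcl1*, and the part of each mutation was not tested. *Icam1* averaged 353 normalized counts in *6KO2*, 19.2 in *6KO1*, 3.62 in *E1E2 G9Gl* and 1.98 in *E1 S1S2*. *Cxcl1* averaged 1971 in *6KO2*, 356 in *6KO1*, 63.7 in *E1E2 G9Gl* and 68.8 in *E1 S1S2*, and *Cxcl5* averaged 664, 49.9, 50.3 and 0.302. *Usp18* averaged 1731 in *6KO1* and 1217 in *E1E2 G9Gl*, against 203 in *6KO2* and 140.1 in *E1 S1S2*, and *Gbp7* averaged 211, 583, 202 and 21. In *E1E2 G9Gl* the mean *Icam1* and *Cxcl1* levels were thus far below those of *E1E2*, while *Usp18* and *Gbp7* were above.

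The letters of the classical binding sites of both pathways were searched in the promoters, taken as 250 bases before to 50 bases after the gene start in RefSeq (GRCm38.p6). The interferon-stimulated response element (ISRE) was read as GAAA, any 2 bases and GAAA, and the NF-kB site as GGG, any 2 bases and TTTCC, both on either strand. A promoter could hold both motifs, and sites that overlap were each counted. The promoter table holds 27 of the 36 interferon response genes and 12 of the 18 inflammatory genes. An ISRE match stood in 17 of the 27 (63.0%) and in 12 of the 21 that were higher (57.1%), against 3.44% of all 32851 promoters and 3.81% of 11111 tested genes with a promoter. An NF-kB match stood in 6 of the 12 inflammatory promoters (50%) and in 6 of the 9 that were higher (66.7%), against 1.63% of all promoters and 2.01% of the tested genes. No ISRE match was found in the 12 inflammatory promoters, and 1 of the 27 interferon promoters had an NF-kB match. The lists were drawn up as targets of these pathways, so the matches describe what their members share and bear on no cause. Of the 12 higher interferon response genes with a match, 6 that rose by 1.88 to 3.60 are printed so that the shared letters can be seen. *Ifit3b* (1.89) lies in that range and is not printed, and its letters are the same as those of *Ifit3*. The 6 inflammatory genes with a match follow. All are given 5′ to 3′ on the strand that carries the motif, with the match in capitals.
Gbp7 ISRE, chr3:142530278-142530297, minus strand, 53 bases before the start: gaactGAAACTGAAActgca
Igtp ISRE, chr11:58199517-58199536, plus strand, 34 bases before the start: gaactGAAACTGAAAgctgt
Gbp2 ISRE, chr3:142620599-142620618, minus strand, 59 bases before the start: acagtGAAAGTGAAActaaa
Ifit3 ISRE, chr19:34583402-34583421, minus strand, 122 bases before the start: aagtaGAAACTGAAAcagac
Cxcl10 ISRE, chr5:92349088-92349107, minus strand, 213 bases before the start: ctttgGAAAGTGAAActtac
Rsad2 ISRE, chr12:26456558-26456577, plus strand, 120 bases before the start: tttctGAAAATGAAAgttgg
Cxcl2 NF-kB, chr5:90903816-90903835, plus strand, 78 bases before the start: tccccGGGCTTTTCCagaca
Cxcl1 NF-kB, chr5:90891169-90891188, plus strand, 71 bases before the start: actccGGGAATTTCCctggc
Il6 NF-kB, chr5:30013065-30013084, plus strand, 44 bases before the start: aatgtGGGATTTTCCcatga
Nfkbia NF-kB, chr12:55492662-55492681, plus strand, 29 bases before the start: gcgcgGGGAATTTCCaagcc
Tnfaip3 NF-kB, chr10:19015408-19015427, plus strand, 12 bases before the start: aacagGGGGATTTCCgatgg
Csf1 NF-kB, chr3:107760609-107760628, plus strand, 154 bases before the start: ccctaGGGACTTTCCctcaa

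The whole windows of *Cxcl1* and *Cxcl2*, which lie next to each other on chromosome 5, are printed because each holds a pair of NF-kB matches (capitals) upstream of the start. Both are on the plus strand, at chr5:90890995-90891294 and chr5:90903649-90903948.
Cxcl1: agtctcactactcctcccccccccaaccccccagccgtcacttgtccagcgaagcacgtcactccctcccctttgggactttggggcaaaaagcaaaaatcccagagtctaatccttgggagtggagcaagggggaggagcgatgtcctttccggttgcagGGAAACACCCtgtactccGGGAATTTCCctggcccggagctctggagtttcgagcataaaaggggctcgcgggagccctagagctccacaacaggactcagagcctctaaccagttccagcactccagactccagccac
Cxcl2: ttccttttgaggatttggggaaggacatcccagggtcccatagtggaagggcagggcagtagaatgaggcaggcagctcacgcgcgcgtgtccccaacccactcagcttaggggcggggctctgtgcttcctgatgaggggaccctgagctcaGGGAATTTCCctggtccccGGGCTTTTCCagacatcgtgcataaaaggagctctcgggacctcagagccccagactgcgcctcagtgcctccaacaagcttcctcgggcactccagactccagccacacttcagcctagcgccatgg

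Targets of p53, the tumour suppressor that arrests damaged cells, were partly higher. Of 16 tested, 6 were higher and 0 lower in *E1E2* than in *E1* (37.5% and 0%, against 3.69% and 2.1% over all genes). The median log2 difference was 0.79. *Cdkn1a*, which encodes the cell cycle inhibitor p21, had 225, 191 and 204 normalized counts in *E1* and 949, 993 and 963 in *E1E2* (log2 difference 2.23, SE 0.07, adjusted p = 9.47e-17, edgeR). *Trp53inp1*, a stress-induced partner of p53, went from 288, 276 and 290.2 to 1209.8, 1260.0 and 1251. *Eda2r*, a death receptor of the TNF family, went from 129.9, 168 and 144 to 829, 851 and 754. The groups lay far apart in all 3. *Gdf15* was higher by 2.92 at a low level, *Ccng1* by 1.12 and *Mdm2*, which marks p53 for degradation, by 1.03. Pro-apoptotic *Bax* (-0.14), *Pmaip1* (0.13) and *Bbc3* (0.86) were not called.

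In *E2* against WT, 0 of the p53 targets were called higher by edgeR and 1 lower, against 2.9% and 3.21% over all genes. At an unadjusted p under 0.05, 13 of the 16 passed, 8 of them higher in *E2*. How many of all genes passed that cut in *E2* against WT is not given. *Cdkn1a* averaged 209.6 in WT and was 431, 386 and 362 in *E2*, a difference of 0.91 (adjusted p = 4.37e-10, edgeR) that stayed under the 2-fold limit. *Trp53inp1* (0.75) and *Eda2r* (0.53) also lay above WT without reaching it. The difference between the clones was larger after 4-OHT by 1.32 for *Cdkn1a*, 1.37 for *Trp53inp1* and 1.93 for *Eda2r*, all called by the test of that difference. *E1 S1S2*, without a mutation of *Eset2*, also had high *Cdkn1a* and *Trp53inp1*, at 861 and 1014 on average, and *6KO1* had 3283 and 4534. Of the clones raised from A4, *E1E2 G9Gl* averaged 239 and 216, and its descendant *6KO2* averaged 1049 and 1240, near the *E1E2* means of 968 and 1240.

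Cell cycle and chromosome segregation genes gave 0 calls among 29 tested with edgeR and 0 with DESeq2, and their median was -0.12. At an unadjusted p under 0.05, 14 passed, 1 of them higher, and over all genes 7626 of 18565 passed. *Top2a* had 25346, 27634 and 26343 normalized counts in *E1* and 25937, 25911 and 25673 in *E1E2*, and *Mki67* differed by -0.02 (SE 0.08), a sign that turned with the library left out. The largest difference in the list was that of *Cdk1*, at -0.59.

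Genes of cholesterol synthesis were lower. Among 18 genes of cholesterol and fatty acid synthesis tested, 4 were lower (22.2%, against 2.1% over all genes) and 0 higher, and the median was -0.72. *Hmgcs1*, which makes HMG-CoA for the pathway, had 7277, 7603 and 7942 normalized counts in *E1* and 3440.1, 3702 and 3597 in *E1E2* (log2 difference -1.09, SE 0.08, adjusted p = 3.06e-10, edgeR). *Idi1*, the isomerase of the isoprenoid units, went from 3384, 3396 and 3851 to 1507, 1496 and 1519.5. *Lss* and *Fdft1*, which act at the squalene step and after it, fell by 1.11 and 1.12 on the log2 scale. *Insig1* (-0.90), *Sqle* (-0.85) and *Fdps* (-0.77) lay below *E1* without reaching the 2-fold limit, while *Fasn* (-0.11), *Acaca* (-0.003) and *Srebf2* (-0.18) differed little. None of the 18 was called by edgeR in *E2* against WT, where the median was -0.32 and 14 had an unadjusted p under 0.05, 4 of them higher in *E2*. In the test of whether the clones differed more after 4-OHT, 0 were called. There 15 had an unadjusted p under 0.05, all of them with a lower value after 4-OHT. How many of all genes passed that cut is not given for either comparison.

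**Figure D2:**
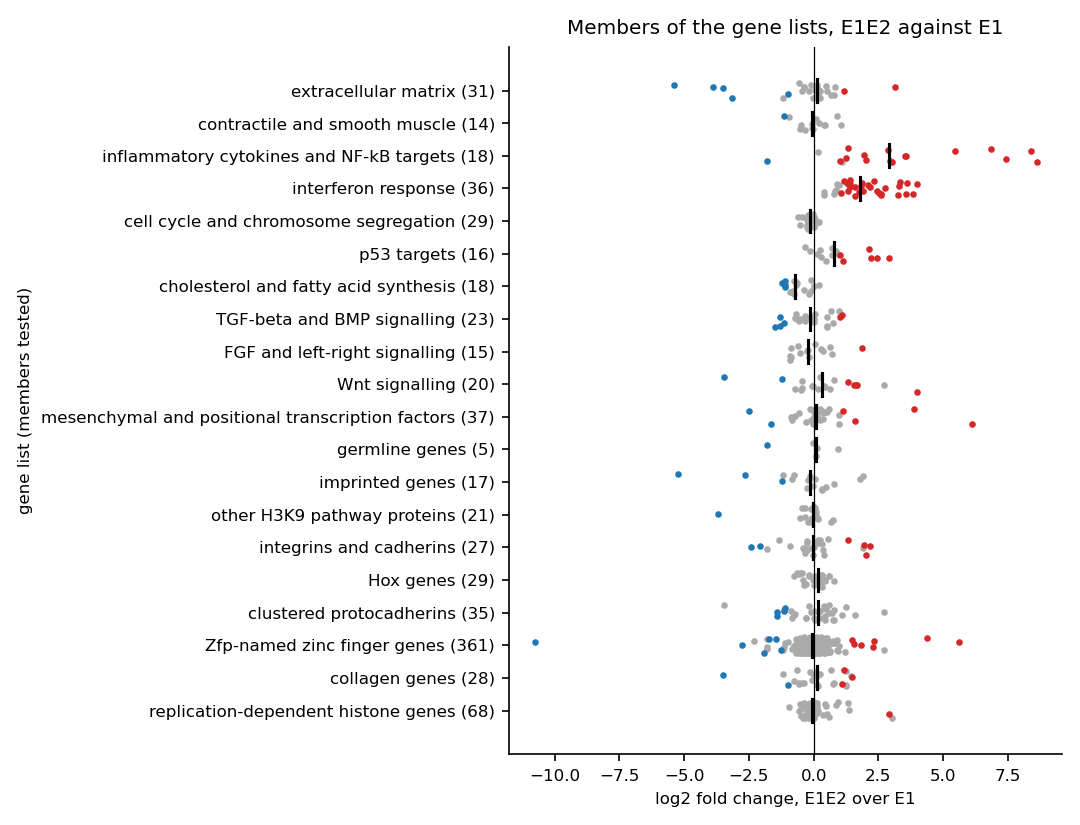
Log2 difference between *E1E2* and *E1* (x axis) of every tested member of 20 gene lists (one row each), with called members in red (higher) or blue (lower) and the list median as a bar. Only the inflammatory list (median 2.91) and the interferon list (1.79) lie mostly beyond the 2-fold limit, and the cholesterol list (-0.72) lies mostly below 0.

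Outside these lists the largest rises were a mixed group. *Dclk2*, a microtubule-associated kinase (chromosome 3, 86786151 to 86920852), had 32.2, 38.5 and 32.5 normalized counts in *E1* and 516, 558 and 543 in *E1E2* (log2 difference 3.97, SE 0.14, adjusted p = 3.04e-15, edgeR). It was 497, 509 and 523 in *E2*, averaged 787 in *E1E2 G9Gl* and 575 in *6KO2*, and averaged 28.8 in WT, 2.21 in *E1 S1S2* and 67.4 in *6KO1*. Every library of A4 and its descendants was thus above every other library. *Alx4*, a homeobox factor of limb and skull (chromosome 2, 93642384 to 93681339), showed the same split at a lower level, with 0.977, 0.987 and 2.64 in *E1*, 121, 106 and 125 in *E1E2* and a mean of 32.9 in *E1E2 G9Gl* and 37.3 in *6KO2* against 0 in *E1 S1S2*. *Tbx4*, a T-box factor of the hindlimb and lung, had 19.5, 13.8 and 14.1 in *E1* and 236, 238 and 225 in *E1E2*, and it too averaged more in *E1E2 G9Gl* (81.4) and *6KO2* (40.8) than in *E1 S1S2* (0.602) and *6KO1* (0.293).

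*Tgm2*, a protein-crosslinking enzyme, went from 29.3, 19.7 and 14.1 to 273, 238 and 255. *Upk3b*, a uroplakin, went from 18.6, 17.8 and 24.6 to 298, 209 and 196 but was higher still in *E2*, at 558, 897 and 493. *Neurl3*, an E3 ubiquitin ligase, was at 7.82, 9.87 and 17.6 in *E1* and 226, 206 and 184 in *E1E2*, and followed the immune genes in *E2*, with 48.8, 2.69 and 49.9. *Sfrp2*, a secreted Wnt antagonist, had 14.7, 8.88 and 7.91 in *E1* and 148, 173 and 177 in *E1E2*. *Zfp286* was nearly absent from *E1*, with 2 reads in all against 106 in *E1E2*, a ratio of 58.3 with a 95% counting interval from 15.7 to 488.

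The deepest fall was that of *Zfp422*, a C2H2 zinc finger gene (chromosome 6, 116624016 to 116628999). It had 211, 208 and 237 normalized counts in *E1* and 0 in each *E1E2* library, at least 211-fold lower if 3 counts are allowed over the group. It averaged 338 in WT, and 0 in *6KO2*, 0.36 in *E1E2 G9Gl*, 0.302 in *E1 S1S2* and 0.293 in *6KO1*, with 0, 0.897 and 0 in *E2*. The gene was thus at or near 0 in every clone raised from E25, with or without an *Eset2* mutation. What lies behind the loss was not tested.

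*Sox11*, a factor of neural and mesenchymal progenitors, had 306, 272 and 224 normalized counts in *E1* and 4.93, 5.54 and 7.24 in *E1E2* (log2 difference -5.47, SE 0.30, adjusted p = 3.18e-12, edgeR), and was back at 377 on average in *6KO2*. *Dlk1*, an imprinted gene that holds back fat cell formation, had 295, 259.6 and 252 in *E1* and 9.85, 1.11 and 9.3 in *E1E2*, with 367 in *6KO1* and 92.5 in *6KO2*. *Gpc6*, a glypican, had 354, 351 and 282 in *E1* and 14.8, 6.64 and 3.1 in *E1E2*. *Eif4g3*, a translation initiation factor, had 253, 246 and 219 in *E1* and 11.8, 8.86 and 5.17 in *E1E2*, and was also low in *E1 S1S2* (0.902) and *6KO1* (2.33). *Unc13c* fell by 4.36, *Gng2* by 4.09, *Piezo2*, a stretch-gated ion channel, by 3.32 and *Cd24a* by 3.28 on the log2 scale.

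**Figure D3:**
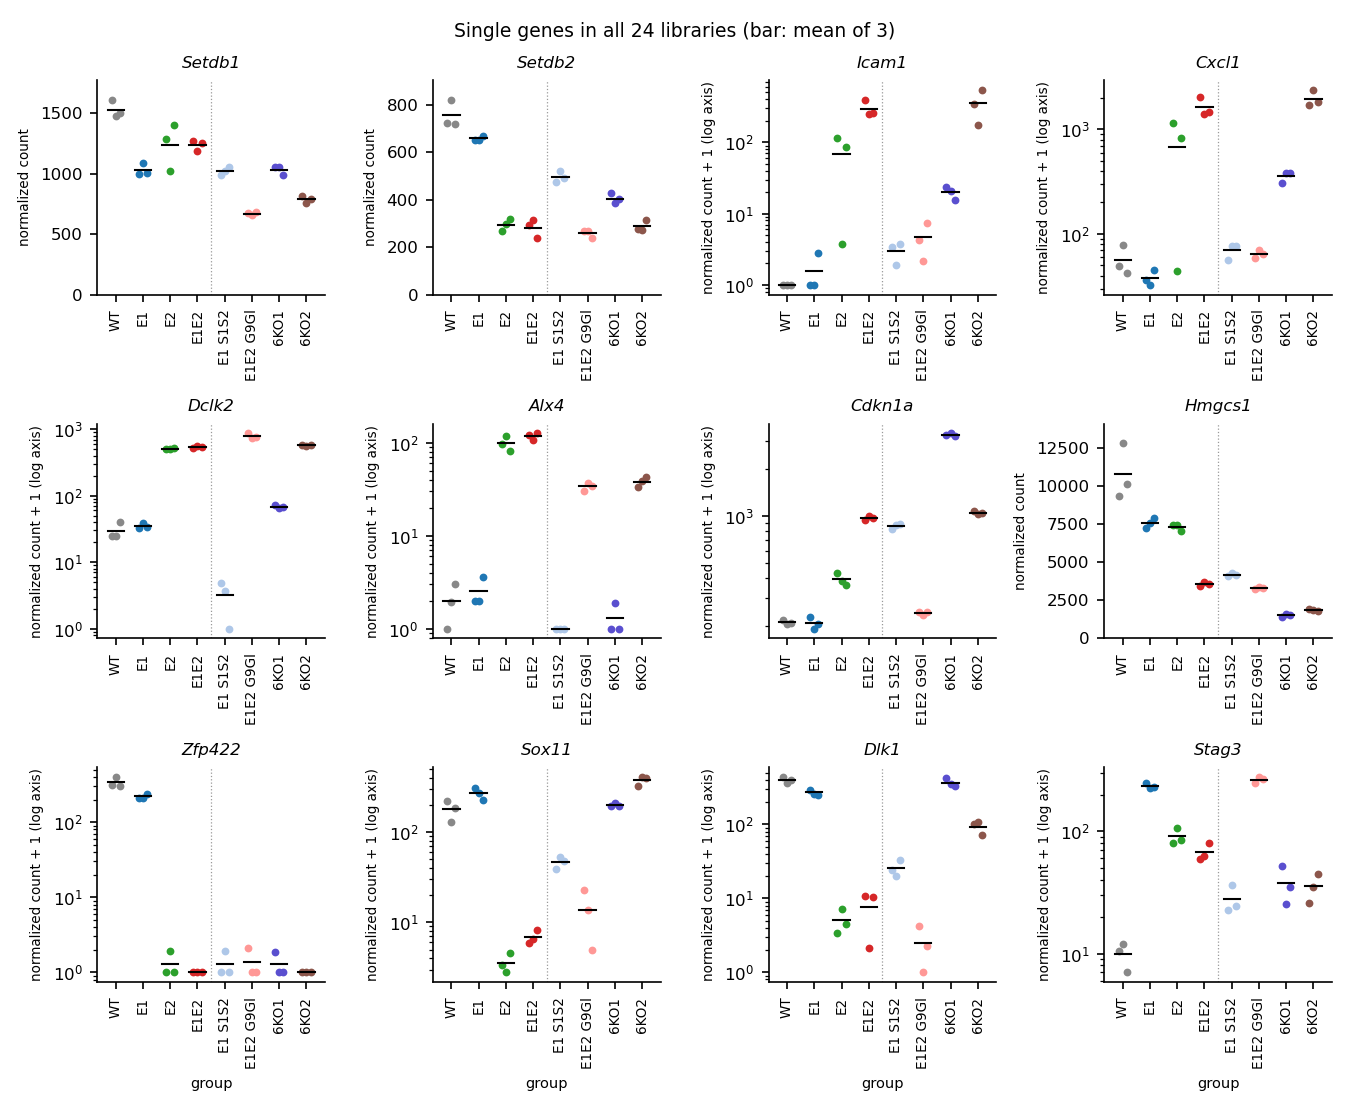
Normalized counts of 12 genes in all 24 libraries (points, with the mean of 3 as a bar), grouped by genotype on the x axis and plotted on a linear axis for *Setdb1*, *Setdb2* and *Hmgcs1* and on a log axis after adding 1 for the others. *Dclk2* and *Alx4* separate A4 and its descendants from the other clones, while *Zfp422* is near 0 in every group other than WT and *E1*.

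A second set of lower genes was already far down in *E1*. *Fbn2*, a fibrillin of elastic microfibrils, averaged 3199 normalized counts in WT, was 226, 204 and 155 in *E1* and 10.8, 16.6 and 12.4 in *E1E2*, with a mean of 21.5 in *E2*. *Serpinf1*, a secreted inhibitor of vessel growth, averaged 3069 in WT, was 468, 405 and 471 in *E1* and 31.5, 37.6 and 23.8 in *E1E2*. Both were therefore low in A4 with and without 4-OHT, and the difference between the clones was smaller after 4-OHT, by 3.30 for *Fbn2* and 2.24 for *Serpinf1* on the log2 scale, both called. The extracellular matrix list had 2 higher and 5 lower members of 31 tested (6.45% and 16.1%, against 3.69% and 2.1% over all genes). *Col6a3* fell from 261, 219 and 189 to 15.8, 17.7 and 25.8 while *Col6a2*, another chain of the same collagen, rose from 923, 918 and 895 to 2259, 1975 and 1942. *Thbs2* fell by 5.40 and *Mgp* by 3.15, and *Dcn*, a small proteoglycan, rose by 3.13. The abundant fibroblast collagens *Col1a1* (-0.03) and *Col3a1* (0.11) were not called.

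The Wnt list and the TGF-beta and BMP list held calls in both directions. Wnt signalling had 5 higher and 2 lower of 20 tested (25% and 10%, against 3.69% and 2.1% over all genes), among them *Axin2* (1.54), a feedback target of the pathway, *Wnt9a* (1.66), *Wnt11* (1.63) and the agonist *Rspo2* (-3.45). TGF-beta and BMP signalling had 2 higher and 4 lower of 23 (8.7% and 17.4%). *Id1* and *Id2*, direct targets of BMP, were lower by 1.13 and 1.28, together with the antagonist *Fst* (-1.29), and *Tgfb1* was higher by 1.11. Mesenchymal and positional transcription factors had 4 higher and 2 lower of 37 (10.8% and 5.41%), with *Tbx2* at 1.59 and *Msx2* at -1.66 beside those described. FGF and left-right signalling, a pathway linked to *Setdb2* in fish, had 1 higher (*Fgf18*, 1.85) and 0 lower of 15 (6.67% and 0%).

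Over all genes 3.69% were higher and 2.1% lower. Integrins and cadherins had 4 higher and 2 lower of 27 (14.8% and 7.41%), and collagen genes 3 and 2 of 28 (10.7% and 7.14%). Contractile genes had 0 and 1 of 14 (0% and 7.14%), and the *Hox* genes 0 and 0 of 29 (0 also by DESeq2). At an unadjusted p under 0.05, 12 of the 29 *Hox* genes passed, against 7626 of 18565 over all genes. Clustered protocadherins had 0 higher and 4 lower of 35 (0% and 11.4%). The lower ones were *Pcdhgb6* (-1.43), *Pcdhga11* (-1.42), *Pcdhga10* (-1.16) and *Pcdhga12* (-1.10), which share their last exons and so may share reads. Zinc finger genes with a Zfp name had 7 higher and 6 lower of 361 (1.94% and 1.66%), below the shares over all genes. Replication-dependent histone genes had 1 higher, *Hist3h2ba*, and 0 lower of 68 (1.47% and 0%). Among imprinted genes 0 were higher and 3 lower of 17 (0% and 17.6%), with *H19* (-2.66) and *Plagl1* (-1.22) beside *Dlk1*.

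Other proteins of the H3K9 pathway gave 0 higher and 1 lower of 21 tested (0% and 4.76%, against 3.69% and 2.1% over all genes). The HP1 genes *Cbx1*, *Cbx3* and *Cbx5* differed by 0.04, -0.33 and -0.02, *Trim28* by 0.09 and *Dnmt1* by 0.18. The called member was *Atf7ip2*, a relative of the SETDB1 partner ATF7IP, with 18.6, 33.6 and 19.3 normalized counts in *E1* and 2.96, 1.11 and 1.03 in *E1E2*, near its WT mean of 2.26. The only germline gene called out of 5 tested was *Stag3*, a meiotic cohesin subunit. It averaged 8.86 in WT, was 247, 224 and 229 in *E1* and 58.1, 62 and 78.6 in *E1E2*, below *E1* and above WT. In A4 it was already at 79.7, 106 and 84.4 without 4-OHT, so the clones differed in opposite directions with and without 4-OHT, by -1.82 and 3.33 on the log2 scale.

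Against WT without 4-OHT, *E2* had 538 genes higher (2.9%) and 596 lower (3.21%). Of the 685 genes higher in *E1E2* than in *E1*, 212 were also higher in *E2* than in WT, which is 30.9% of the former and 39.4% of the latter. Of the 389 lower genes, 196 were also lower (50.4% and 32.9%). Opposite calls were found for 16 and 37 genes. Without WT replicate 2, 391 calls were shared, both directions together. Without *E2* replicate 2 the shared numbers were 255 and 191. The *Dclk2*, *Alx4*, *Tbx4*, *Tgm2*, *Sox11*, *Dlk1*, *Gpc6* and *Zfp422* differences were among those called in both, with or without that library.

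The difference between the clones itself differed between treated and untreated cells for 635 genes, 373 where it was higher after 4-OHT (2.01%) and 262 where it was lower (1.41%). Without *E2* replicate 2 the numbers were 348 and 226. Without WT replicate 2, 661 genes were called, both directions together. Among the genes called between *E1E2* and *E1*, 255 were also called in this test. They comprise 152 higher genes with a positive and 73 lower genes with a negative change of the difference.

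**Figure D4:**
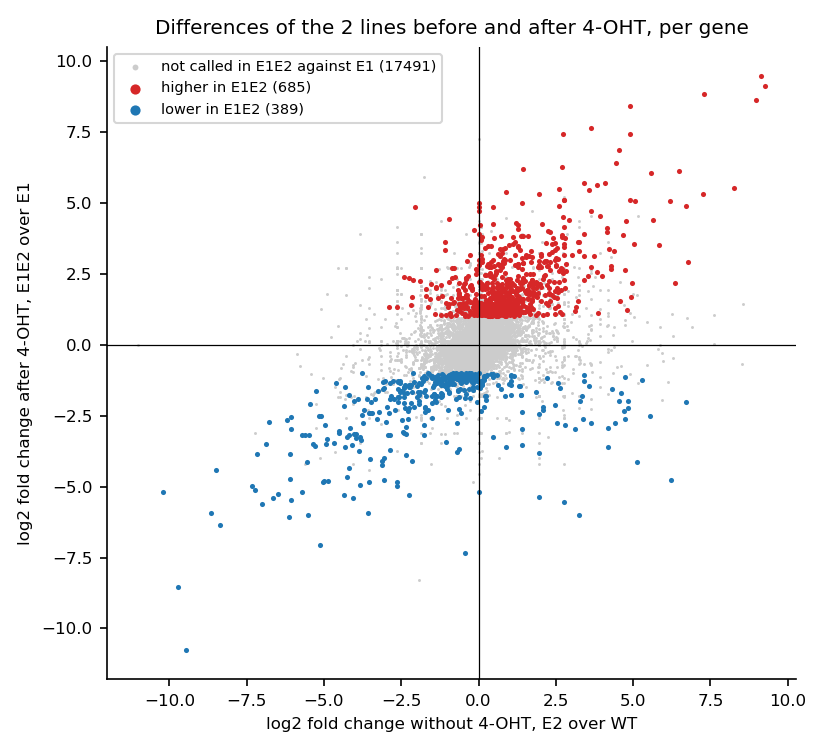
Log2 difference of each tested gene between *E2* and WT without 4-OHT (x axis) and between *E1E2* and *E1* after 4-OHT (y axis), with genes called higher (red) or lower (blue) in *E1E2* than in *E1*. Of the genes called higher after 4-OHT 212 were also higher without it, and 196 of the lower genes were also lower.

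The later clones allow a comparison that uses none of these libraries. Clones raised from A4 (*E1E2 G9Gl* and *6KO2*) were set against clones raised from E25 by way of B1 (*E1 S1S2* and *6KO1*). *E1E2 G9Gl* and *E1 S1S2* also differ in *Suv39h1*, *Suv39h2*, *G9a* and *Glp*. *6KO1* is itself an *Eset2* mutant, with mutations in the same genes as *6KO2*, so the comparison does not set *Eset2* mutants against clones without that mutation. In it 1691 genes were higher (9.11%) and 773 lower (4.16%). Of the genes higher in *E1E2* than in *E1*, 204 (29.8%) were also higher here and 116 were lower. For the lower genes the numbers were 71 (18.3%) and 127, so more of them were called in the opposite direction than in the same one. *Cdkn1a* was among the higher genes with the opposite sign, at -1.75.

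Repeat elements are counted by name, summed over all copies in the genome, and have no single position. Among 1217 elements tested, 13 were higher in *E1E2* than in *E1* (1.07%) and 14 lower (1.15%), and the median element differed by 0.041. Most calls were LTR elements, with 11 higher and 10 lower of 583 tested. LINE elements had 0 calls of 258 by edgeR and DESeq2. At an unadjusted p under 0.05, 31 of them passed, against 192 of all 1217 elements. Satellites had 0 higher and 1 lower of 5 and SINE elements 1 higher and 0 lower of 37. Summed over all LTR elements, the *E1E2* count was 0.663 times that of *E1*, with every *E1E2* library below every *E1* library (exact permutation p = 0.1, two-sided, the smallest that 3 against 3 allows). MuLV-int made up most of this drop. Without it, an alternative chosen after seeing the data, the LTR total was 0.959 times that of *E1*, from 818583 to 836207 in *E1E2* and from 823867 to 915420 in *E1*, so the groups overlapped, and the median LTR element differed by 0.073. The totals of LINE, SINE and satellite elements were 1.02, 1.08 and 1.04 times those of *E1* (exact permutation p = 0.7, 0.4 and 0.4).

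The lower elements were led by MuLV-int, the internal part of murine leukaemia virus proviruses. It had 517611, 477910 and 445143 normalized counts in *E1* and 64835, 61965 and 61038 in *E1E2* (log2 difference -2.94, SE 0.11, adjusted p = 1.51e-25, edgeR). It averaged 4624 in WT, so *E1E2* still lay far above WT, and it was 100812, 99772 and 99582 in *E2* without 4-OHT. The ranges of *E1*, *E2*, *E1E2* and WT did not overlap. RLTR4_MM-int and RLTR4_Mm, the related internal and LTR parts, fell with it by 2.37 and 2.36 on the log2 scale. In the later clones MuLV-int averaged 344572 in *6KO2* and from 111183 (*E1 S1S2*) to 157222 (*E1E2 G9Gl*) in the rest, all between *E1E2* and *E1*.

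Several intracisternal A particle (IAP) elements, ERVs of the ERVK family, were lower as well. IAP1-MM_I-int had 1538, 1593 and 1526 in *E1* and 248, 272 and 267 in *E1E2* (log2 difference -2.56, SE 0.11, adjusted p = 1.56e-23, edgeR), and its LTR, IAP1-MM_LTR, fell by 2.12 on the log2 scale. IAPEY4_LTR (-1.34), IAP-d-int (-1.20), IAPEY4_I-int (-1.07) and IAPEY3-int (-1.03) were also called. The most abundant IAP element, IAPEz-int, had 25672, 27546 and 25987 in *E1* and 18155, 17852 and 17537 in *E1E2*, a difference of -0.56 that stayed within the 2-fold limit. IAP1-MM_I-int averaged 25802 in *E1E2 G9Gl* and 6609 in *6KO2*, far above *E1E2*.

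The higher elements spanned a wide range of abundance. RLTR9A3A went from 90.9, 80 and 59.8 to 263, 229 and 228 (log2 difference 1.65, SE 0.15, adjusted p = 2.03e-12, edgeR). RMER17A-int was higher by 1.40, RLTR1B-int by 1.18 and B2_Mm1a, a SINE that averaged 40103 in *E1* and 80769 in *E1E2*, by 1.01. RLTR6-int, with its LTR RLTR6B_Mm, was at 10897, 11109 and 11306 in *E1* and 23179, 22838 and 22506 in *E1E2*, a difference of 1.04 that fell to 0.99 with factors computed from the repeats alone. MMERVK10C-int (-0.18), MMVL30-int (0.48) and the major satellite GSAT_MM (0.44) were not called. The U2 and MER34B-int calls, at 6.12 and 4.05, rest on *E1E2* replicate 2 alone. U2, a small nuclear RNA, had 153, 39379.7 and 188 normalized counts in *E1E2* against 202, 221 and 148 in *E1*, and MER34B-int had 6.9, 571 and 3.1. Without that library the differences were -0.159 and -1.16. U2 was also at 38593 in *E2* replicate 2 and averaged 46321 in *6KO2*.

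By family, 0 of 58 were higher (0%) and 1 was lower (1.72%). The ERV1 total, to which MuLV-int belongs, averaged 874780 in *E1* and 432149 in *E1E2* (log2 difference -1.02, SE 0.12, adjusted p = 4.16e-07, edgeR). Without MuLV-int the ERV1 difference was -0.0945 (adjusted p = 0.851), so 1 element made the call. The ERVK total differed by -0.14 (adjusted p = 0.528).

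**Figure D5:**
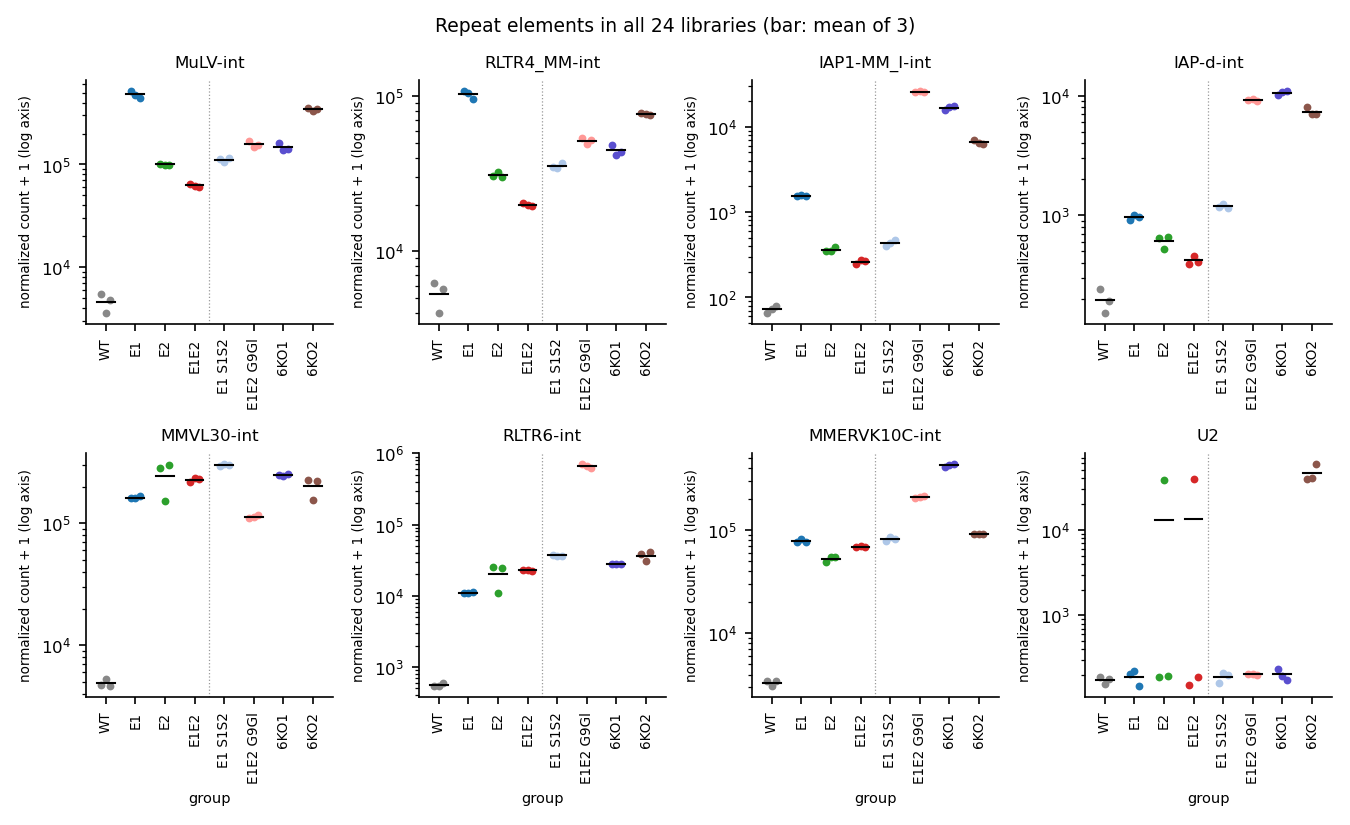
Normalized counts plus 1 (log axis) of 8 repeat elements in all 24 libraries, with points for libraries and bars for the mean of 3. MuLV-int is lower in *E1E2* (61038 to 64835) than in *E1* (445143 to 517611) and far above WT in both, and U2 is high in *E1E2* replicate 2, *E2* replicate 2 and the *6KO2* libraries.

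Several retroelements known to respond to *Eset1* loss were already high in A4 before 4-OHT. MMVL30-int averaged 4849 in WT and was 283537, 152137 and 301002 in *E2*, MMERVK10C-int averaged 3323 and was 49076, 55111 and 55195, and RLTR6-int averaged 562 and was 25156, 11015 and 24414. In *E1E2* they were at 218239 to 233863, 68147 to 70677 and 22506 to 23179. IAPEz-int was higher in *E2* than in WT by 0.88 on the log2 scale, within the 2-fold limit, and the major satellite GSAT_MM differed by -0.20. Over all elements, 60 were higher (4.93%) and 28 lower (2.3%) in *E2* than in WT. The difference between the clones was higher after 4-OHT for 6 elements (0.493%) and lower for 52 (4.27%), and without *E2* replicate 2 these numbers were 12 and 58. Without WT replicate 2, 50 elements were called, both directions together. MuLV-int had the largest such change, -7.37, as *E2* exceeded WT by 4.44 while *E1E2* fell below *E1*. Of the 14 lower elements, 9 had been higher in *E2* than in WT. In A4, without 4-OHT, the mean *Setdb1* count stood between those of *E1* and WT, and the part of *Eset1* in these *E2* values was not tested.

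Median differences by chromosome lay between -0.33 on chromosome 10 and 0.22 on chromosome 16. They were -0.26 on chromosome 1 and -0.21 on chromosome 14, where *Setdb2* lies. Between *E2* and WT, without 4-OHT, the medians of chromosomes 10, 16, 1 and 14 were -0.08, 0.13, -0.30 and -0.12. What lies behind these shifts was not tested. The 26 mitochondrial genes had a median of -0.66 (-0.76 between *E2* and WT), with 0 higher and 4 lower. In bulk RNA, fewer cells that transcribe a gene and less RNA of it per cell cannot be told apart, and this holds for all differences given.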

How the data were processed

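RNA of MEFs was sequenced as paired reads from stranded total RNA libraries. The authors trimmed reads with cutadapt 1.8.1, aligned them to GRCm38 with STAR 2.5.2b, obtained counts per gene and per repeat element with TEtranscripts, where multi-mapping reads are split among copies, and deposited whole-number counts without normalization. Whether counting used strand is not given in the sources used here, so antisense neighbours may share reads. All samples carry the same treatment text, and the titles mark controls. The table holds 47937 genes and 1445 repeat elements, and 0 columns had no sample.

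Counts were fitted with edgeR 4.0.16 in R 4.3.3 (quasi-likelihood test, TMM factors from genes also for repeats, filterByExpr, 1 coefficient per group over all 24 libraries, two-sided, Benjamini-Hochberg). The script was tested on simulated data. Normalized counts are counts divided by the effective library size and multiplied by its mean. Replicates are called biological in the study's methods. Alternatives were DESeq2 1.42.0, RLE factors, other filters and thresholds, fewer libraries and a replicate block.

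Named genes are the 6 methyltransferases, the 12 largest rises and falls among called genes with a mean of at least 100 normalized counts and no overlap (clone names left out), up to 5 called members of each list (or its 2 most abundant), the 10 largest rises and falls among repeats and 6 elements known to respond. Others were named after their values were seen, and some items are not reported here. The comparison and lists were chosen with earlier results of these data known. Counting intervals and floors cover counting error only.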

Additional observations from a re-analysis of the deposited data

Results flagged for a closer look

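For some named genes and elements the difference between clones A4 and E25 after 4-OHT (*E1E2* minus *E1*) differed from that without 4-OHT (*E2* minus WT), by a test of the difference itself (edgeR, at least 2-fold and adjusted p at most 0.01). Values are the former minus the latter on the log2 scale. Among the largest falls and rises it was 3.30 for *Fbn2*, 2.24 for *Serpinf1*, 1.58 for *Piezo2*, -1.72 for *Eif4g3* and -2.34 for *Upk3b*. It was 2.43 for *Gbp7*, and 1.93, 1.32 and 1.37 for the p53 targets *Eda2r*, *Cdkn1a* and *Trp53inp1*. For signalling genes it was -1.17 for *Id2*, -1.58 for *Id1*, 1.65 for *Sfrp2* and 1.26 for *Axin2*. In the smaller lists it was -5.15 for *Stag3*, 3.52 for *H19*, -2.06 for *Pcdhga11*, -2.15 for *Pcdhga12*, -6.41 for *Zfp600*, 1.47 for *Col27a1* and -1.003 for *Col7a1*.

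All flagged repeat elements changed in the negative direction. The value was -7.37 for MuLV-int, -4.92 for RLTR4_MM-int, -4.48 for RLTR4_Mm, -5.18 for MMVL30-int, -4.13 for RLTR6-int, -2.93 for RLTR6B_Mm and -5.04 for RLTR9A3A. It was -4.17 for MMERVK10C-int and -1.08 for RMER17A-int. Among IAP elements it was -4.90 for IAP1-MM_I-int, -3.71 for IAP1-MM_LTR, -3.22 for IAPEY3-int, -2.85 for IAP-d-int and -1.44 for IAPEz-int. *E2* replicate 2 stands apart from its group and enters all these values. Without it *Eif4g3* (-1.58, adjusted p = 0.0219), *Id2* (-0.82, adjusted p = 0.0993), *Zfp600* (-6.16, adjusted p = 0.0396), *Col27a1* (1.18, adjusted p = 0.0341) and *Col7a1* (-0.98) were no longer called (edgeR), and *Gng2* (-1.44), *Dcn* (1.76), *Wnt9a* (1.26) and the repeat element U2 (5.98) were. The U2 value with that library was -0.0985, and *E2* replicate 2 and *E1E2* replicate 2 each held nearly all U2 reads of their group.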

How the results depend on the processing

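The counts of called features moved with the thresholds. With no fold minimum 2131 genes were higher and 2004 lower in *E1E2* than in *E1*, 1650 differed between treated and untreated cells, 2069 calls were shared with *E2* against WT and 1337 with the later clones, and 37 repeat elements were higher and 27 lower. With only features of mean normalized count above 100 the numbers were 318, 141, 339, 178 and 117, and 8 elements were higher. With only the libraries compared, 264 calls were shared with *E2* against WT. The ERV1 difference was -0.0945 without MuLV-int and 0.43 without MuLV-int, RLTR4_MM-int and RLTR4_Mm, an alternative chosen after seeing the data, and leaving out 1 library gave -1.05 to -0.98, without a call only in the absence of *E1* replicate 1. The LTR total was 0.959 times that of *E1* without MuLV-int, also chosen after seeing the data. With 1 library left out *Mki67* ranged from -0.086 to 0.022, with 0.022 and 0.0052 without *E1* replicate 1 or *E1E2* replicate 3. U2 ranged from -0.159 to 6.70 and MER34B-int from -1.16 to 4.63, with the lowest values without *E1E2* replicate 2. With the replicate number as a block (replicate block), 677 genes were higher and 386 lower, 620 differed between treated and untreated cells, and 12 elements were higher and 15 lower. Same-numbered *E1* and *E1E2* libraries deviated with r of 0.017, 0.121 and 0.036, so the numbers were not taken as pairs. Of the named genes *Fgf18*, *Alx1*, *Itga2*, *Pcdhga10*, *Pcdhga12*, *Col7a1*, *Tgfb1*, *Mylk* and *Zfp423* lost their call with some library left out, and of the elements B2_Mm1a, IAPEY3-int and RLTR6B_Mm. RLTR6-int, B2_Mm1a, U2 and MER34B-int lost it with factors from repeats alone. List counts chosen for a second look after seeing the data were 28 to 29 higher interferon genes and 14 to 15 higher inflammatory genes with 1 library left out.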
